A study of Homo sapiens with 12 samples.

Results

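The comparison described here is a difference of differences: the change in poly(A)+ RNA after 6 h of auxin in SPT6-AID cells, minus the same change in PAF1-AID cells, gene by gene. It rests on 8 of the 12 libraries of the series, which are those labelled 6 h or 0 h, with 2 libraries in each of the 4 groups. All groups are DLD-1, a cell line from a human colorectal adenocarcinoma, and constitutively express the plant F-box protein OsTIR1. The groups are SPT6-AID cells after 6 h in 500 µM auxin, SPT6-AID cells at 0 h, PAF1-AID cells after 6 h in 500 µM auxin and PAF1-AID cells at 0 h. In the AID lines, auxin lets OsTIR1 mark the tagged protein for degradation, so the mRNA of the tagged gene does not check the depletion, and protein levels were not analysed here. An untagged line given auxin is not among these groups. A change within a line therefore combines the loss of the tagged protein with the effect of auxin, whereas an auxin effect of equal size in both lines is subtracted from the difference. The labels do not say whether a line is a single clone, or whether replicate libraries came from separate cultures. The p-values therefore measure the spread between these libraries, which may be technical.

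SPT6 is a histone chaperone that binds elongating RNA polymerase II and helps to keep nucleosomes in place behind it. PAF1 is a core subunit of the PAF1 complex, which rides on the same polymerase, contacts SPT6 and is needed for ubiquitylation of histone H2B in gene bodies. Both are known as general elongation factors, and the PAF1 complex has also been linked to the release of polymerase paused near promoters. The comparison asks which transcripts depend differently on the factors.

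The 8 libraries held 29961183 to 60249085 human counts each. Counts of fly genes, which were mapped together with the human ones, averaged 6.16 per 100 human counts in SPT6-AID cells at 6 h, against 4.49 at 0 h, and 5.27 in PAF1-AID cells at 6 h, against 4.35 at 0 h. In bulk RNA, fewer cells of a type and less RNA per cell cannot be told apart. Of 8 markers of colorectal epithelium, 6 (CDH1, EPCAM, KRT8, KRT18, KRT20 and CDX2) were above 1 CPM, the usual count per library size after TMM scaling, in all 8 libraries, whereas VIL1 and LGALS4 were below it. SUPT6H, which encodes SPT6, had 549 and 557 CPM in SPT6-AID cells at 6 h, against 496 and 501 CPM at 0 h, and 374 and 359 CPM in PAF1-AID cells at 6 h, against 261 and 287 CPM at 0 h. PAF1 had 52.3 and 61.5 CPM in SPT6-AID cells at 6 h, against 69.6 and 75.8 CPM at 0 h, and 116 and 117 CPM in PAF1-AID cells at 6 h, against 126 and 131 CPM at 0 h. The difference between the responses was -0.27 ± 0.15 (log2 ± SE) for SUPT6H and -0.21 ± 0.17 for PAF1, and neither passed the threshold (edgeR adjusted p = 0.453 and 0.656).

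Of the 20791 human genes tested, 778 (3.74%) responded differently in the lines at 6 h, by edgeR's quasi-likelihood test at a Benjamini-Hochberg adjusted p under 0.05. The difference was positive, meaning a higher response in SPT6-AID cells, for 129 genes (0.62% of those tested) and negative for 649 (3.12%). The median difference was 2.35 among the 129 genes and -1.15 among the 649, on the log2 scale, against 0.01 over all genes tested. The smallest called difference was 0.59 among genes with a mean of at least 1 on the log2 CPM scale and 1.59 among those under it. The lower genes held 77 of the 129 positive and 8 of the 649 negative differences, so the medians of the sets are not on like terms. For every one of the 778 genes, each 6 h minus 0 h difference between SPT6-AID libraries lay beyond each one between PAF1-AID libraries, a separation that was also met by 10.8% of all genes tested in the positive and by 16.9% in the negative direction. The number of calls depended on the scaling and on single libraries. With library sizes taken from total human counts, 223 genes were called, 61 positive and 162 negative, so that 27.4% were positive against 16.6% with TMM scaling. With the fly totals as library sizes 16 genes were called, and with the 8 libraries fitted without those at 2 h, 84. Other settings gave more calls: 1330 without a filter on low counts, 1359 by DESeq2's Wald test and 4513 with the replicate number as a block. Leaving out a library gave 172 or 60 calls without SPT6-AID 0 h replicate 1 or 2, 153 without SPT6-AID 6 h replicate 2, 52 or 185 without PAF1-AID 0 h replicate 3 or 4, and 234 or 30 without PAF1-AID 6 h replicate 3 or 4. It gave 479 without SPT6-AID 2 h replicate 2, and 418 or 420 without PAF1-AID 2 h replicate 3 or 4. Leaving out SPT6-AID 6 h replicate 1 instead raised the number of calls. The called genes named below kept the sign of the difference in these settings, wherever a setting gave them a value.

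Most negative differences came from a fall in SPT6-AID cells that was not called in PAF1-AID cells. In the lines taken singly, 25.2% of the genes tested changed in SPT6-AID cells (8.76% higher, 16.4% lower) and 10.9% in PAF1-AID cells (4.2% higher, 6.7% lower). Of the 649 genes with a negative difference, 522 fell in SPT6-AID cells with no call in PAF1-AID cells, and their median responses were -1.12 and 0.06. Another 36 fell in both lines, with medians of -2.02 in SPT6-AID cells and -0.78 in PAF1-AID cells. A further 55 rose in PAF1-AID cells alone, 28 fell in SPT6-AID cells and rose in PAF1-AID cells, 2 rose in both lines and 6 were called in neither. Of the 129 genes with a positive difference, 88 rose in SPT6-AID cells with no call in PAF1-AID cells, 15 rose in both, 19 fell in PAF1-AID cells alone and 5 rose in SPT6-AID cells and fell in PAF1-AID cells. Of the rest, ANKRD1 fell in both lines and SLC35D3 was called in neither. The responses of the lines share no library, and across all 20791 genes they correlated with Pearson's r = 0.63 and Spearman's rho = 0.54, given as a description across genes, which are not independent. A call in SPT6-AID cells alone is not a difference between the lines: 3681 genes were called in SPT6-AID cells only, and for 3071 of them the difference itself missed the threshold.

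**Figure D1:**
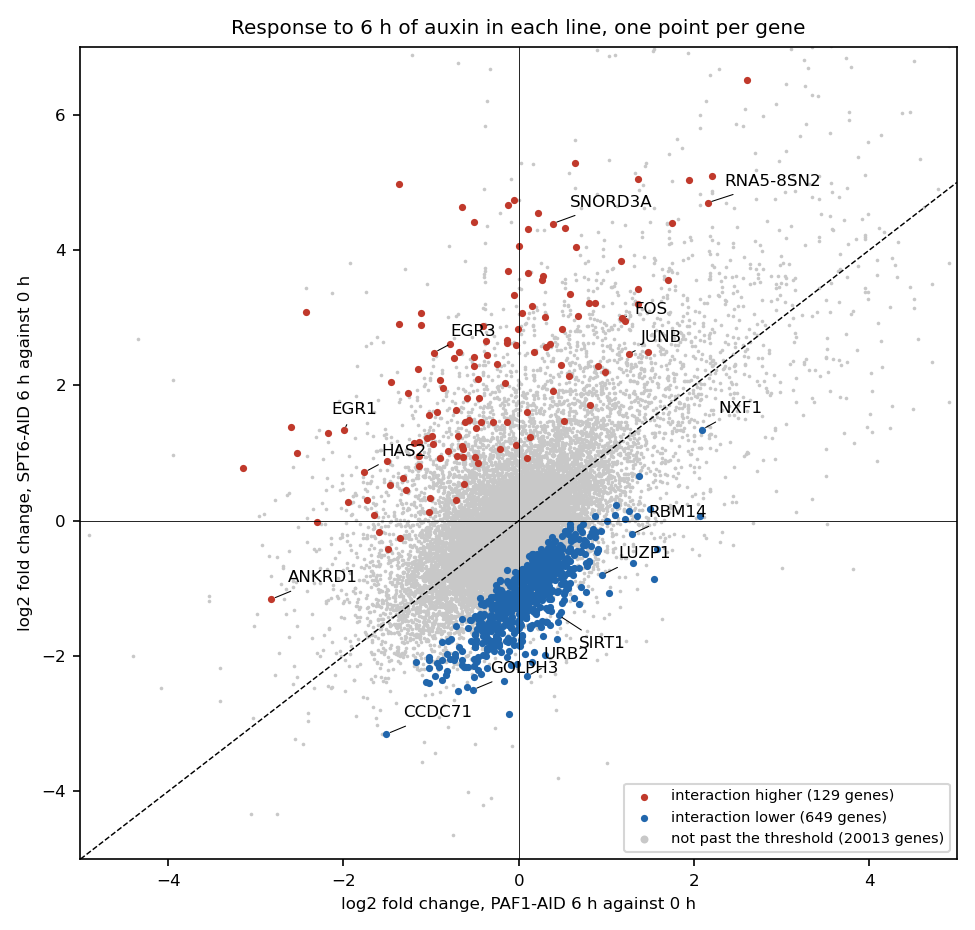
Each point is a gene, with its log2 fold change at 6 h against 0 h in PAF1-AID cells on the x axis and in SPT6-AID cells on the y axis; the dashed line marks equal responses, and 90 genes lie outside the axes. The 649 genes with a negative difference (blue) lie below the line, most of them below 0 for SPT6-AID cells and near 0 for PAF1-AID cells, and EGR1 and SIRT1 lie in opposite quadrants.

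U3 small nucleolar RNA genes and a ribosomal RNA locus had large positive differences, and that of SNORD3A was the largest called among genes with a mean of at least 1 on the log2 CPM scale. U3 guides the early cleavages of the pre-ribosomal RNA and is normally not polyadenylated. SNORD3A, at chr17:19188016-19188714 on GRCh38, had 28.6 and 37.6 CPM in SPT6-AID cells at 6 h, against 1.37 and 1.78 CPM at 0 h, and 3.25 and 2.18 CPM in PAF1-AID cells at 6 h, against 2.01 and 2.13 CPM at 0 h. SPT6-AID cells at 6 h stood above the other 6 libraries, which lay between 1.37 and 3.25 CPM. The difference was 4.0 ± 0.36 (edgeR adjusted p = 0.003). In SPT6-AID cells at 6 h SNORD3B-1 had 9.43 and 11.3 CPM and SNORD3B-2 had 6.37 and 8.84 CPM, whereas both were below 1 CPM in the other 6 libraries. SNORD3C was under 1 CPM in all 8 libraries, with 0.696 and 0.978 CPM in SPT6-AID cells at 6 h and 0.0357 to 0.161 CPM in the other 6. It may have passed the filter on low counts through the group where it is high, so its difference is no separate support. All 4 U3 genes rose in SPT6-AID cells and none was called in PAF1-AID cells, with differences of 4.0 to 4.93, the largest that of SNORD3C. These genes are near-identical copies, so that reads may have been split among them, and the counting strand is not given in the sources used here. The RNA5-8SN2 locus, a ribosomal RNA gene on a scaffold outside the assembled chromosomes, had 188 and 201 CPM in SPT6-AID cells at 6 h, against 7.91 and 7.06 CPM at 0 h, and 33.3 and 22.0 CPM in PAF1-AID cells at 6 h, against 6.44 and 5.96 CPM at 0 h. It rose in both lines, and more in SPT6-AID cells, with a difference of 2.54 ± 0.30 (edgeR adjusted p = 0.00636). SNORD3A, SNORD3B-1, SNORD3B-2 and RNA5-8SN2 kept the call under all 22 alternative settings.

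Early response genes, which growth factors and stress switch on within minutes without new protein synthesis, held 11 of the coding genes with a positive difference. Of the 11 measured AP-1 genes of the FOS and JUN families, 4 had a positive and none a negative difference, with a list median of 0.69. Of the 25 measured EGR, KLF, IER and GADD45 genes, 7 had a positive and none a negative difference, with a median of 0.44. Over all genes tested the median was 0.01 and 0.62% were positive. With total human counts as library sizes 3 and 5 of the genes in these lists were called, and with fly totals 0 and 1. The lists were chosen with results of these data in view, so that their counts are a description.

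The promoters of EGR1, FOS and JUNB are printed as examples, from 250 bases before to 50 bases after the annotated start. They are from RefSeq on GRCh38.p14, all on the plus strand. Elements outside this window were not searched, so a gene without a match here may hold one elsewhere. Capitals mark serum response elements (CArG boxes) in EGR1 at chr5:138465229-138465528, and the TATA box TATAAA in FOS at chr14:75278578-75278877 and in JUNB at chr19:12791236-12791535.
EGR1: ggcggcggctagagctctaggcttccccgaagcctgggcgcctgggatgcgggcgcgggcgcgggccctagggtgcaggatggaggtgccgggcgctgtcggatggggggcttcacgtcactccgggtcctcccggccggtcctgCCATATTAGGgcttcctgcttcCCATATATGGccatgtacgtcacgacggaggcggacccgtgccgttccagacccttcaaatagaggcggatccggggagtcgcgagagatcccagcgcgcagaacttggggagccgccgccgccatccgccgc
FOS: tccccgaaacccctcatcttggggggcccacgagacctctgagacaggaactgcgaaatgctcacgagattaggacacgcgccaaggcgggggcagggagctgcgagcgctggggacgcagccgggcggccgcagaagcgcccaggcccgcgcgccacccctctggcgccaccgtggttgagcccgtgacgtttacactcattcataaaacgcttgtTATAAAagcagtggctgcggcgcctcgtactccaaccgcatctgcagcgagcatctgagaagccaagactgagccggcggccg
JUNB: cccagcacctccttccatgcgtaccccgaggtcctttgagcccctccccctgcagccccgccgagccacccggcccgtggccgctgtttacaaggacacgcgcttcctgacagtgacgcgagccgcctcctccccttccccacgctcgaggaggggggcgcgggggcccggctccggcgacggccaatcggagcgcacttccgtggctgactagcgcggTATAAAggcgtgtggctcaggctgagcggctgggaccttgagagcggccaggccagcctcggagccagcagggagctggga
EGR1 held 2 CArG boxes, and FOS and JUNB a TATAAA each. On either strand, TATAAA was found in 4 of the 8 early response genes with a positive difference that have a RefSeq promoter here (GADD45B, FOSB, FOS and JUNB), in 5 of the 27 such genes measured whatever their difference (18.5%), in 15.6% of the 45 coding genes with a positive difference, in 3.82% of the 524 with a negative difference, and in 6.34% of all 10992 coding genes tested that have one. A CArG box was found in 1 of the 8 and 2 of the 27 early response genes, and in 2.22% of the coding genes with a positive difference, 0.763% of those with a negative one and 1.08% of all. The AP-1 motif, TGACTCA or its complement TGAGTCA, was found in 13.3%, 1.91% and 3.09% of the same 3 sets of coding genes. The GC box GGGCGG was found on either strand in 53.3%, 74.0% and 68.7% of them. A match is a description of these letters and no evidence of binding.

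Within the early response genes, the lines differed in both size and direction of response. EGR1, the zinc finger transcription factor of this class, had 395 and 187 CPM in SPT6-AID cells at 6 h, against 157 and 73.6 CPM at 0 h, and 29.5 and 28.5 CPM in PAF1-AID cells at 6 h, against 116 and 115 CPM at 0 h. Its level in PAF1-AID cells at 6 h was below that in the other 6 libraries, and in SPT6-AID cells at 6 h both values were above both at 0 h, although the replicates of that line differed by more than 2-fold at each time. EGR1 had a response of 1.33 ± 0.36 in SPT6-AID cells and -1.99 ± 0.37 in PAF1-AID cells, both past the threshold, a difference of 3.33 ± 0.52 (edgeR adjusted p = 0.0135). EGR2 and EGR3, its paralogues, had differences of 3.47 ± 0.65 and 3.45 ± 0.58 (edgeR adjusted p = 0.0215 and 0.0161). EGR3 had 12.7 and 19.0 CPM in SPT6-AID cells at 6 h, against 3.52 and 2.13 CPM at 0 h, and 2.11 and 1.42 CPM in PAF1-AID cells at 6 h, against 4.5 and 2.41 CPM at 0 h, and its fall in PAF1-AID cells was not called. EGR4 was low, with 1.28 and 0.419 CPM in SPT6-AID cells at 6 h, and its difference of 3.0 ± 0.88 missed the threshold (edgeR adjusted p = 0.0941).

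FOS and JUNB, partners in the AP-1 dimer, rose in both lines and more in SPT6-AID cells. FOS had 67.2 and 49.5 CPM in SPT6-AID cells at 6 h, against 7.66 and 6.95 CPM at 0 h, and 13.4 and 9.2 CPM in PAF1-AID cells at 6 h, against 4.7 and 5.28 CPM at 0 h, and its difference was 1.82 ± 0.30 (edgeR adjusted p = 0.0154). JUNB had 426 and 409 CPM in SPT6-AID cells at 6 h, against 87.5 and 64.0 CPM at 0 h, and 240.1 and 199.97 CPM in PAF1-AID cells at 6 h, against 89.7 and 94.9 CPM at 0 h, and its difference was 1.21 ± 0.22 (edgeR adjusted p = 0.0208). JUN had 113 and 133 CPM in SPT6-AID cells at 6 h, against 43.6 and 36.9 CPM at 0 h, and 87.5 and 75.6 CPM in PAF1-AID cells at 6 h, against 75.1 and 77.7 CPM at 0 h. It rose in SPT6-AID cells alone, while all 4 PAF1-AID values lay between 75.1 and 87.5 CPM, and the difference was 1.52 ± 0.19 (edgeR adjusted p = 0.00829). FOSB followed, with 2.42 ± 0.57 (edgeR adjusted p = 0.0474). GADD45B, a growth arrest and DNA damage gene, and IER5 rose in both lines, with differences of 1.02 and 1.21.

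IER3, a stress-induced regulator of cell survival, differed through a fall in PAF1-AID cells. It had 193 and 259.9 CPM in SPT6-AID cells at 6 h, against 169.5 and 161 CPM at 0 h, and 107 and 89.9 CPM in PAF1-AID cells at 6 h, against 257 and 224 CPM at 0 h. The values in PAF1-AID cells at 6 h were the lowest of the 8, and the response in SPT6-AID cells was not called (edgeR adjusted p = 0.0644). The difference was 1.75 ± 0.23 (edgeR adjusted p = 0.00872). KLF6, a Krüppel-like factor, likewise fell in PAF1-AID cells alone, but its difference of 0.81 ± 0.23 missed the threshold (edgeR adjusted p = 0.0831). SRF, JUND, FOSL1 and ATF3 had differences of 0.03, 0.21, 0.11 and 1.00, none of them called. Among 15 feedback genes of ERK signalling, the cascade that induces many early response genes, IER3 and the phosphatase gene DUSP4 were positive and none was negative. Over all genes tested, 0.62% were positive and 3.12% negative. IER3 is also counted in the EGR, KLF, IER and GADD45 list, so the lists are not separate. The calls of EGR1, JUN and IER3 were kept under 19, 20 and 21 of the 22 alternatives, and those of FOSB, IER5 and GADD45B under 8, 8 and 9.

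**Figure D2:**
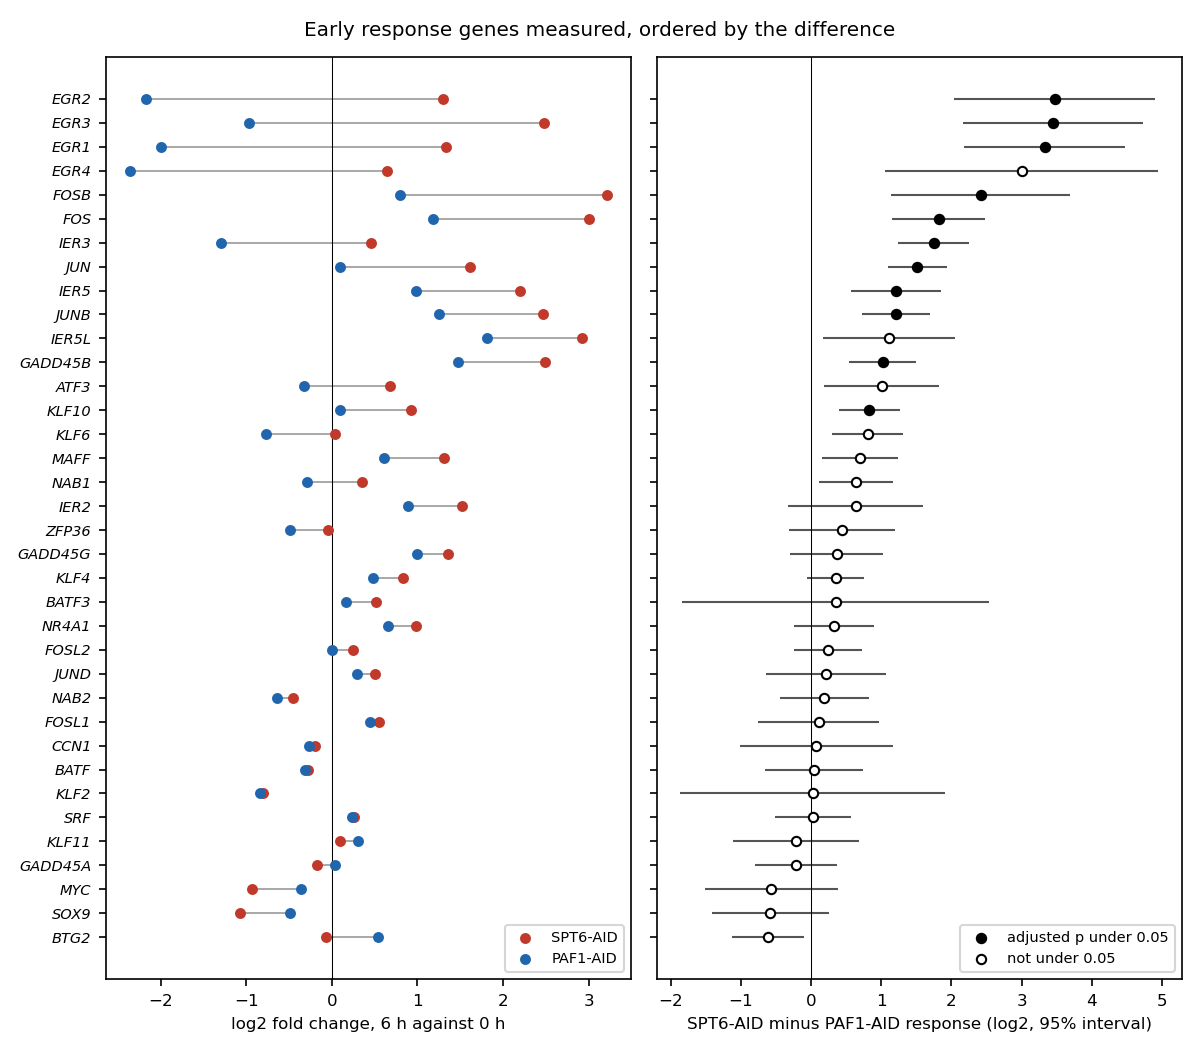
On the left, the log2 fold change at 6 h against 0 h of each of the 36 measured early response genes in SPT6-AID (red) and PAF1-AID cells (blue); on the right, the difference of the responses with its unadjusted 95% interval, filled where the adjusted p was under 0.05. The 11 filled points all lie above 0, and EGR1, EGR2 and EGR3 carry the largest differences among them.

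Other genes with a large positive difference were not of this class. PRDM1, which encodes the transcriptional repressor BLIMP-1, had 14.8 and 17.6 CPM in SPT6-AID cells at 6 h, against 2.89 and 3.76 CPM at 0 h, and 5.29 and 3.9 CPM in PAF1-AID cells at 6 h, against 7.39 and 5.69 CPM at 0 h. It rose in SPT6-AID cells alone, and the difference was 2.79 ± 0.39 (edgeR adjusted p = 0.0115). KCNQ5, a potassium channel gene, had a difference of 3.14 ± 0.59 (edgeR adjusted p = 0.0226), also from a rise in SPT6-AID cells alone. HAS2, the hyaluronan synthase gene, had 17.3 and 27.7 CPM in SPT6-AID cells at 6 h, against 9.11 and 18.2 CPM at 0 h, and 4.46 and 4.34 CPM in PAF1-AID cells at 6 h, against 16.3 and 13.6 CPM at 0 h. In PAF1-AID cells the values at 6 h were below all other values, whereas in SPT6-AID cells the times overlapped, and the difference was 2.48 ± 0.49 (edgeR adjusted p = 0.0265). DOK7, an adaptor of the muscle receptor kinase MuSK, fell in PAF1-AID cells alone in the same way (2.23 ± 0.45). So did the transcription factor gene GFI1 (1.43), the retinoic acid hydroxylase gene CYP26B1 (1.07) and the cytokine gene TNFSF15 (1.95). ANKRD1, a target of the YAP coactivator, had 27.6 and 23.1 CPM in SPT6-AID cells at 6 h, against 64.3 and 49.1 CPM at 0 h, and 4.82 and 9.49 CPM in PAF1-AID cells at 6 h, against 50.7 and 50.5 CPM at 0 h. It fell in both lines and further in PAF1-AID cells, with a difference of 1.66 ± 0.37 (edgeR adjusted p = 0.0372). The calls of ANKRD1, CYP26B1 and TNFSF15 held under 8, 6 and 8 of the 22 alternatives.

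Many of the positive differences were in noncoding RNAs. Of the 129 genes, 58 (45.0%) were protein-coding and 58 (45.0%) long noncoding, against 65.7% and 14.0% of all genes tested, whereas 623 of the 649 negative genes (96.0%) were protein-coding. Among 483 antisense RNA genes 11 were positive and none negative, with a median of 0.60, and among 334 LINC genes 5 were positive and none negative, with a median of 0.49, beside 0.62% positive and a median of 0.01 for all genes. With total human counts 4 and 1 of them were called, and with fly totals 0 and 0. Also, most such genes were low: of the genes with a mean under 1 on the log2 CPM scale, 77 of 7494 were positive and 8 negative, against 52 and 641 of 13297 above it. A low gene can pass the filter on low counts through the group where it is high, which bears on its sign. These shares are therefore a description, and the part of the filter in them was not tested. SBNO1-AS1 had 3.91 and 3.88 CPM in SPT6-AID cells at 6 h, against 0.839 and 0.729 CPM at 0 h, and 0.812 and 0.789 CPM in PAF1-AID cells at 6 h, against 0.89 and 1.01 CPM at 0 h, a difference of 2.55 ± 0.35 (edgeR adjusted p = 0.0107). CFLAR-AS1, at 3.18, also rose in SPT6-AID cells alone, and ADAMTSL4-AS2, at 2.89, rose in both lines. Where an antisense gene overlaps another gene its counts are uncertain, since the counting strand is not given in the sources used here.

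A small set of genes, 33 with TMM scaling, was called in opposite directions in the lines. The count moved with the scaling: it was 12 with total human counts as library sizes and 0 with fly totals. Whether each gene kept its direction within each line under other scalings was not tested. Besides EGR1 and EGR2, the positive set held WNK4, a kinase gene of ion transport, with 9.17 and 7.68 CPM in SPT6-AID cells at 6 h, against 4.05 and 4.82 CPM at 0 h, and 3.32 and 2.93 CPM in PAF1-AID cells at 6 h, against 7.01 and 4.61 CPM at 0 h, a difference of 1.82 ± 0.34 (edgeR adjusted p = 0.0215). FZD5, a WNT receptor gene, differed by 1.17 ± 0.25 (edgeR adjusted p = 0.0327), and AL121603.2 (2.30) was the other member. SIRT1, the NAD-dependent deacetylase gene at chr10:67884669-67918390, had 63.6 and 54.5 CPM in SPT6-AID cells at 6 h, against 156 and 155 CPM at 0 h, and 194 and 222 CPM in PAF1-AID cells at 6 h, against 147 and 156 CPM at 0 h. Both SPT6-AID values at 6 h were the lowest of the 8 and both PAF1-AID values at 6 h the highest, a difference of -1.85 ± 0.18 (edgeR adjusted p = 0.00338). LUZP1, which encodes an actin- and centrosome-associated protein, had 125 and 93.2 CPM in SPT6-AID cells at 6 h, against 188 and 194 CPM at 0 h, and 303 and 291 CPM in PAF1-AID cells at 6 h, against 149 and 159 CPM at 0 h, a difference of -1.75 ± 0.20 (edgeR adjusted p = 0.00599). PDE12, a mitochondrial phosphodiesterase gene, had 39.8 and 35.6 CPM in SPT6-AID cells at 6 h, against 75.8 and 73.1 CPM at 0 h, and 114 and 106 CPM in PAF1-AID cells at 6 h, against 64.7 and 70.0 CPM at 0 h, a difference of -1.69 ± 0.17 (edgeR adjusted p = 0.00347). In both genes, the groups at 0 h lay between the SPT6-AID and PAF1-AID groups at 6 h.

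ZBTB33, which encodes the methyl-DNA binding factor Kaiso, the depalmitoylase gene ABHD17B and AC069544.1 also fell in SPT6-AID cells and rose in PAF1-AID cells, with differences of -1.83, -1.77 and -1.82. Further genes of the 28 were YTHDF3, a reader of methylated adenosine in mRNA (-1.33), PHAX, an export adaptor of small nuclear RNA (-1.33), TERF2, a telomere-binding protein (-1.17), DAXX, a histone chaperone (-1.10), and AMBRA1, a regulator of autophagy (-1.38). The promoters of SIRT1 at chr10:67884406-67884705 and PDE12 at chr3:57556024-57556323, plus strand, are shown because these genes moved oppositely in the lines and differ in base composition. Capitals mark matches to AP-1 and, on the other strand, to TATAAA.
SIRT1: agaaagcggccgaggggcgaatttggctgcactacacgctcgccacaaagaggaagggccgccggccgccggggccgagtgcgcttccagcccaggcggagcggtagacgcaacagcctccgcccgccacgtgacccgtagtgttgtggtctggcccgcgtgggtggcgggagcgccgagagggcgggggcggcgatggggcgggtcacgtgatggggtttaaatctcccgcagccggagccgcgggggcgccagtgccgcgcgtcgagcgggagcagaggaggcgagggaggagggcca
PDE12: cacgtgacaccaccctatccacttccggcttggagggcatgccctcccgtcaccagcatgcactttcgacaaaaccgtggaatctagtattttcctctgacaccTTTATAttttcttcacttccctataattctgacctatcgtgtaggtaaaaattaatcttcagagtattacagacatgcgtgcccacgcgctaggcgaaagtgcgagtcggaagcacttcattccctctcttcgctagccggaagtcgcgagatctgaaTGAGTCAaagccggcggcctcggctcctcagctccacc
SIRT1 had 72.7% G or C and 4 GC boxes, and none of the other elements searched. PDE12 had 51.3% G or C, an AP-1 motif and a reversed TATAAA, and no GC box. Of the 21 such genes with a RefSeq promoter, 3 (14.3%) held an AP-1 motif, against 3.09% of all coding genes with one.

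**Figure D3:**
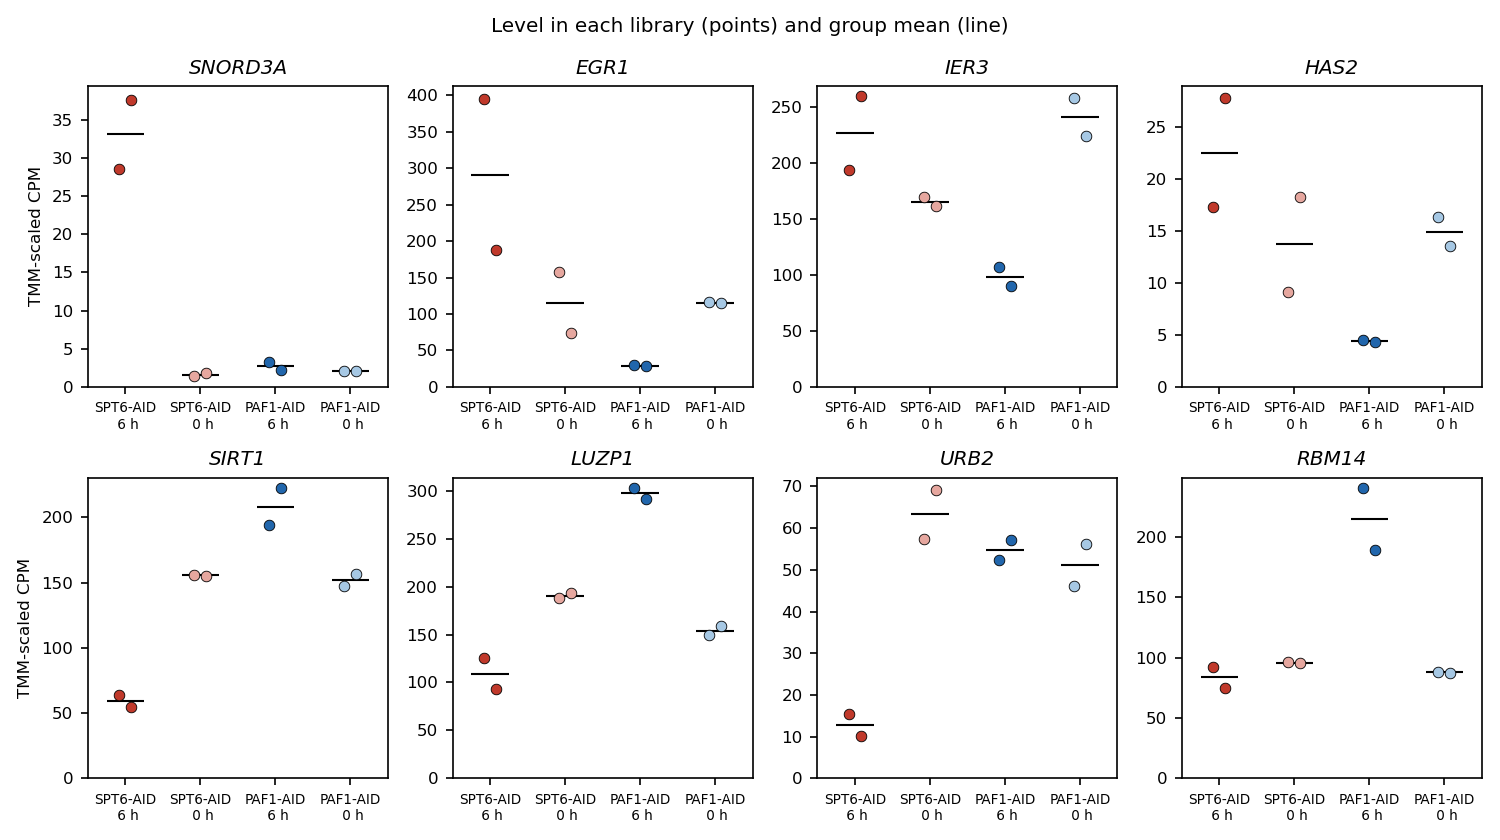
TMM-scaled CPM in each library (points) and the group mean (line) for 8 genes, in SPT6-AID cells at 6 h and 0 h and PAF1-AID cells at 6 h and 0 h. EGR1 and SIRT1 move in opposite directions in the lines, SNORD3A rises and URB2 falls in SPT6-AID cells alone, and RBM14 rises in PAF1-AID cells alone.

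Among genes with a mean of at least 1 on the log2 CPM scale, most of the largest negative differences came from falls in SPT6-AID cells with no call in PAF1-AID cells. URB2, a ribosome biogenesis gene at chr1:229626234-229660199, had 15.5 and 10.2 CPM in SPT6-AID cells at 6 h, against 57.4 and 69.2 CPM at 0 h, and 52.3 and 57.2 CPM in PAF1-AID cells at 6 h, against 46.2 and 56.2 CPM at 0 h. Both SPT6-AID values at 6 h lay far below the other 6, and the difference was -2.39 ± 0.30 (edgeR adjusted p = 0.00784). CCNF, which encodes cyclin F, a ubiquitin ligase substrate receptor of the cell cycle, had 28.1 and 25.7 CPM in SPT6-AID cells at 6 h, against 95.6 and 116 CPM at 0 h, and 91.6 and 101 CPM in PAF1-AID cells at 6 h, against 91.4 and 91.4 CPM at 0 h. The other 6 values spanned 91.4 to 116 CPM, and the difference was -2.05 ± 0.24 (edgeR adjusted p = 0.00605). KIAA1586 had 4.41 and 4.12 CPM in SPT6-AID cells at 6 h, against 18.2 and 18.2 CPM at 0 h, and 23.8 and 23.9 CPM in PAF1-AID cells at 6 h, against 20.2 and 22.7 CPM at 0 h, a difference of -2.24 ± 0.23 (edgeR adjusted p = 0.00338). TNK1, a tyrosine kinase gene (-2.27), ELF2, an ETS transcription factor gene (-2.05), DCP1B, an mRNA decapping gene (-2.09), GOLPH3, a Golgi trafficking gene (-1.98), and the zinc finger gene ZNF695 (-2.11) also fell in SPT6-AID cells alone. So did DCAF16 and KBTBD6, both adaptors of cullin ubiquitin ligases (-2.18 and -1.95), and AUNIP, a partner of Aurora A (-1.93). KIAA1586, CCNF and KBTBD6 kept their call under all 22 alternatives, and DCP1B under 12. AL606834.1, a low RNA within an intron of another gene, differed by -2.39 ± 0.43 (edgeR adjusted p = 0.0201) through a rise in PAF1-AID cells alone.

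Some genes fell in both lines and further in SPT6-AID cells. CCDC71 had 3.89 and 2.76 CPM in SPT6-AID cells at 6 h, against 27.5 and 32.1 CPM at 0 h, and 8.81 and 11.4 CPM in PAF1-AID cells at 6 h, against 25.6 and 31.9 CPM at 0 h, a difference of -1.64 ± 0.32 (edgeR adjusted p = 0.0241). NUP153, a nuclear pore gene, had 31.2 and 27.0 CPM in SPT6-AID cells at 6 h, against 137 and 161 CPM at 0 h, and 69.9 and 94.6 CPM in PAF1-AID cells at 6 h, against 139 and 162 CPM at 0 h, a difference of -1.48 ± 0.25 (edgeR adjusted p = 0.0159). In both genes the PAF1-AID values at 6 h lay between the SPT6-AID values at 6 h and the values at 0 h. CREB1, the cAMP-response factor (-1.17), and NPAT, the activator of histone genes (-1.27), shared this order, as did FANCM, a DNA crosslink repair helicase (-1.25).

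Genes of the elongation machinery itself held only negative called differences among the 45 measured. Most calls in coding genes had this direction, 623 of 681. Of 6 measured PAF1 complex subunit genes, LEO1 and RTF1 had a negative difference and none was positive, with a median of -0.59. LEO1 had 28.3 and 21.1 CPM in SPT6-AID cells at 6 h, against 60.7 and 62.1 CPM at 0 h, and 61.7 and 65.9 CPM in PAF1-AID cells at 6 h, against 53.5 and 60.4 CPM at 0 h, a difference of -1.47 ± 0.22 (edgeR adjusted p = 0.013). RTF1 differed by -1.01 ± 0.23 (edgeR adjusted p = 0.0424), a call kept under 6 of the 22 alternatives. CDC73 fell in SPT6-AID cells, with a response of -1.05, and had one of -0.19 in PAF1-AID cells, and its difference of -0.86 ± 0.25 missed the threshold (edgeR adjusted p = 0.0953). CTR9 rose in both lines, by 0.54 in SPT6-AID cells and 0.87 in PAF1-AID cells, with no called difference. Among 15 genes of SPT6 partners and histone chaperones, CHD1, a chromatin remodeller (-1.17), and SETD2, the methyltransferase that marks transcribed chromatin (-1.12), were negative. IWS1, the direct partner of SPT6, fell in both lines, with -1.74 in SPT6-AID cells and -1.21 in PAF1-AID cells, and no called difference (-0.54 ± 0.27).

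Of 11 genes of P-TEFb, its 7SK inhibitor and the related kinases, CDK13 had 47.9 and 28.4 CPM in SPT6-AID cells at 6 h, against 89.5 and 82.7 CPM at 0 h, and 97.3 and 94.8 CPM in PAF1-AID cells at 6 h, against 78.6 and 80.8 CPM at 0 h, a difference of -1.44 ± 0.28 (edgeR adjusted p = 0.0251), and CCNT1, the cyclin of P-TEFb, differed by -0.88. The median of the 11 was -0.52, and the call of CCNT1 held under 9 of the 22 alternatives. CDK12 fell in both lines, and its difference of -0.62 ± 0.22 missed the threshold (edgeR adjusted p = 0.172). LARP7, which holds the inhibitory 7SK particle together, had a response of -0.22 in SPT6-AID cells and fell in PAF1-AID cells, with -0.77, and the difference of 0.55 ± 0.18 missed the threshold (edgeR adjusted p = 0.137). Of 13 genes of NELF and the super elongation complex, the reader genes MLLT1 (-0.88) and MLLT3 (-0.85) were negative and none positive, with a median of -0.75. In these 4 lists 8 genes were negative and 0 positive by edgeR's test, beside 3.12% and 0.62% of all genes tested. Among the 13663 coding genes, 623 were negative and 58 positive. With total human counts 1 gene was called and with fly totals 0, while the list medians were below 0 under each of the scalings tried.

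**Figure D4:**
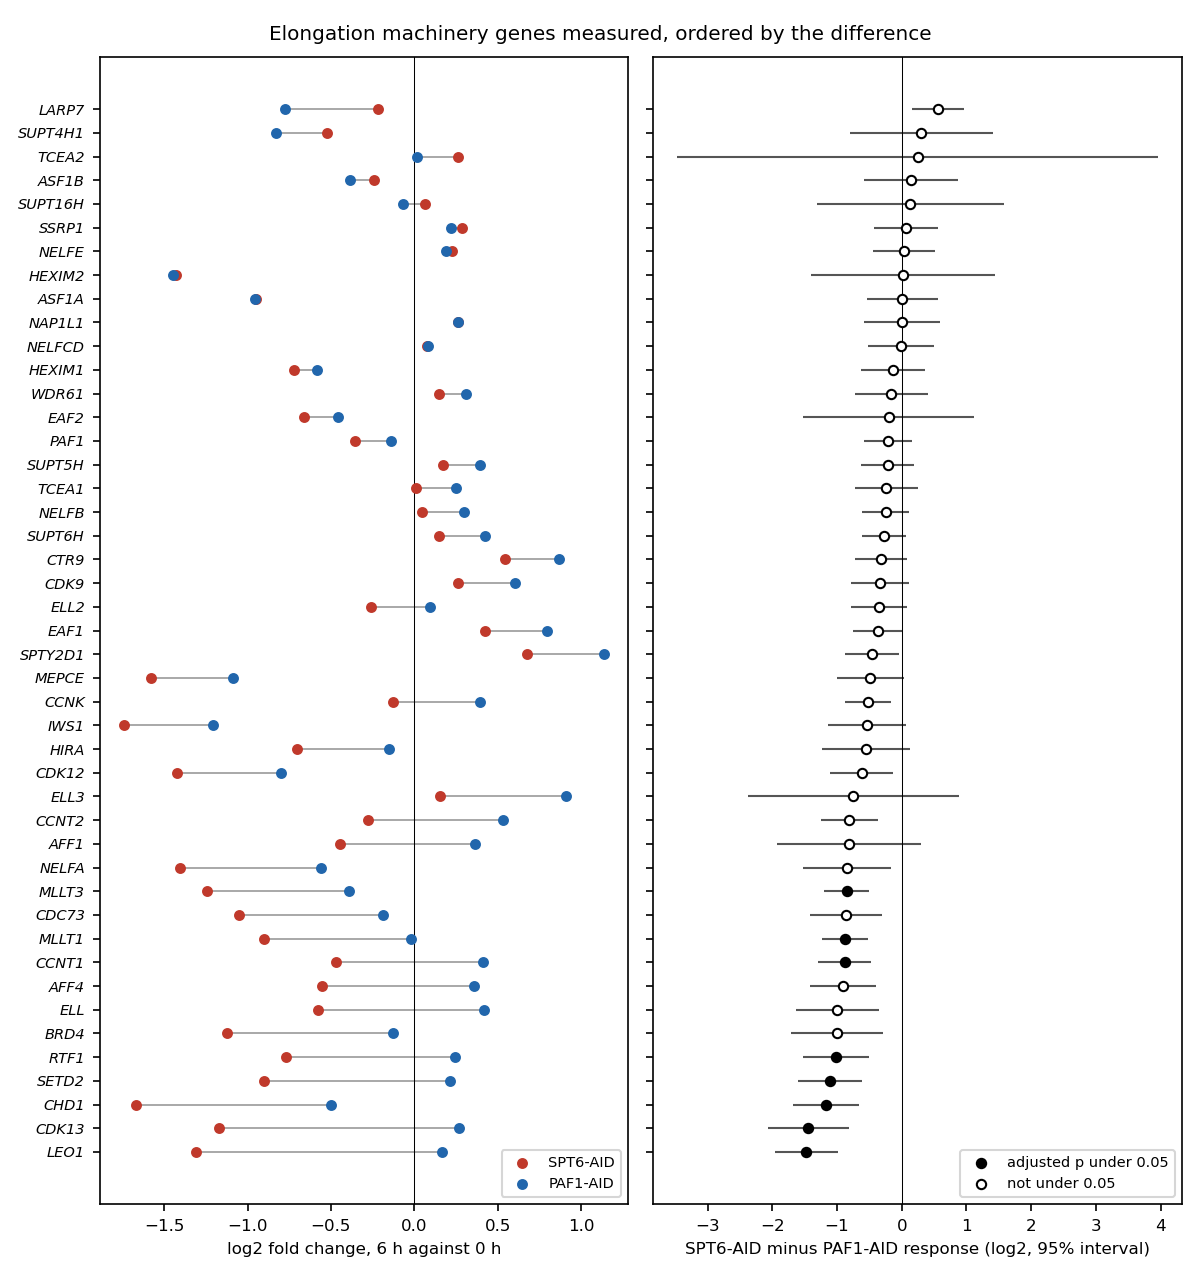
On the left, the log2 fold change at 6 h against 0 h of the 45 measured elongation machinery genes in SPT6-AID (red) and PAF1-AID cells (blue); on the right, the difference of the responses with its unadjusted 95% interval, filled where the adjusted p was under 0.05. All 8 filled points lie below 0, led by LEO1 and CDK13, and LARP7 has the highest difference, with an open point.

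Genes of RNA synthesis and decay held further negative differences, beside 3.12% of all genes tested and 623 of the 13663 coding genes. Of 33 RNA polymerase II subunits and general factors, 5 were negative and none positive, with a median of -0.12. TAF5, a subunit of TFIID, had 4.09 and 4.12 CPM in SPT6-AID cells at 6 h, against 26.5 and 18.5 CPM at 0 h, and 16.6 and 19.6 CPM in PAF1-AID cells at 6 h, against 24.3 and 30.3 CPM at 0 h, a difference of -1.86 ± 0.31 (edgeR adjusted p = 0.0159). GTF2B, which encodes TFIIB (-1.32), the polymerase subunit gene POLR2D (-1.14), the TFIIH gene GTF2H1 (-0.75) and TAF7 (-0.64) were the others. Of 25 genes of 3′ end cleavage and termination, 4 were negative and none positive, with a median of -0.37: CSTF2T (-1.55), the poly(A) polymerase gene PAPOLG (-1.54), FIP1L1 (-1.24) and WDR33 (-1.19). Of 18 nonsense-mediated decay factors, 5 were negative and none positive, with a median of -0.37. Among them UPF2 (-0.92) and the exon junction genes CASC3 (-1.02) and RNPS1 (-0.86) fell in SPT6-AID cells alone, whereas SMG8 (-1.12) rose in PAF1-AID cells alone. The kept calls ranged from 4 of 22 alternatives for GTF2H1 and TAF7 to 18 for CSTF2T. The 5, 4 and 5 calls in these lists were 3, 1 and 0 with total human counts and 0 in each with fly totals.

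Of 42 ribosome biogenesis genes, 8 were negative and none positive, with a median of -0.36. Beside them, 3.12% of all genes and 623 of the 13663 coding genes were negative. With total human counts 7 were called and with fly totals 1. In the single lines, 22 of the 42 fell in SPT6-AID cells, where 16.4% of all genes did, and 3 in PAF1-AID cells, where 6.7% did, and none rose in either. GRWD1, a histone-binding assembly factor of the large ribosomal subunit, had 31.1 and 26.8 CPM in SPT6-AID cells at 6 h, against 109 and 110.4 CPM at 0 h, and 93.1 and 100.2 CPM in PAF1-AID cells at 6 h, against 98.4 and 111 CPM at 0 h. The other 6 values lay between 93.1 and 111 CPM, and the difference was -1.81 ± 0.18 (edgeR adjusted p = 0.00338), kept under all 22 alternatives. WDR43, a subunit of the small subunit processome, had 29.4 and 26.2 CPM in SPT6-AID cells at 6 h, against 147 and 171 CPM at 0 h, and 75.5 and 115 CPM in PAF1-AID cells at 6 h, against 129 and 178 CPM at 0 h, a difference of -1.83 ± 0.32 (edgeR adjusted p = 0.0195). POLR1B and POLR1C, which encode subunits of RNA polymerase I, differed by -1.40 and -1.14. The genes of the U3 particle proteins MPHOSPH10 and IMP3 differed by -1.22 and -1.27, beside the positive differences of the U3 RNA genes. NOB1 and RRS1 completed the 8, at -1.16 and -1.08. The 84 cytosolic ribosomal protein genes held no call by edgeR, DESeq2 or limma-voom, and 0 at an unadjusted p under 0.05, with a median of 0.20. The GRWD1 promoter at chr19:48445733-48446032, plus strand, holds a GC box and no TATAAA, AP-1 motif or CArG box.
GRWD1: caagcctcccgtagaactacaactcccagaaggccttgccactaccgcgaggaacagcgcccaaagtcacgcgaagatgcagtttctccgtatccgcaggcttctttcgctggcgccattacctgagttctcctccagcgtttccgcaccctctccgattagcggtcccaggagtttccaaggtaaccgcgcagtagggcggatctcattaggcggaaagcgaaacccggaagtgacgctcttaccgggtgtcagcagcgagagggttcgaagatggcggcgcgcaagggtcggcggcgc

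Of 371 zinc finger genes of the ZNF series, many of them repressors, 2 were positive and 27 negative, with a median of -0.32. The shares were 0.62% and 3.12% of all genes, and 58 and 623 of the 13663 coding genes. With total human counts 0 were positive and 6 negative, and with fly totals none was called. ZNF770 had 30.6 and 30.6 CPM in SPT6-AID cells at 6 h, against 87.6 and 96.9 CPM at 0 h, and 87.9 and 94.9 CPM in PAF1-AID cells at 6 h, against 104 and 78.4 CPM at 0 h, a difference of -1.59 ± 0.22 (edgeR adjusted p = 0.0115). ZNF561 (-1.49) and ZNF484 (-1.63) also fell in SPT6-AID cells alone. ZNF281 (-1.44) fell in SPT6-AID cells and rose in PAF1-AID cells. The positive pair was ZNF843 (1.85) and ZNF503 (0.95). Of 37 ZBTB genes, ZBTB33, ZBTB24 and ZBTB26 were negative and none positive.

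Cell cycle, repair, lipid and WNT genes are given beside 3.12% negative and 0.62% positive differences among all genes tested. Of the 13663 coding genes, 623 were negative and 58 positive. In the single lines, 16.4% of all genes fell in SPT6-AID cells and 6.7% in PAF1-AID cells. The calls in the cell cycle and repair lists are no result about these lists. Of 32 mitosis genes, 21 fell in SPT6-AID cells and 10 in PAF1-AID cells, and CDCA8, a chromosomal passenger gene, was the only one with a called difference (-1.34). Of 35 repair genes, 21 fell in SPT6-AID cells and 12 in PAF1-AID cells, and FANCM and BARD1 (-1.21) were called. Of 40 replication and cell cycle entry genes, 11 fell in SPT6-AID cells, and 6 fell and 1 rose in PAF1-AID cells. Of these 40, CDC25A, a phosphatase that activates cyclin-dependent kinases, had 35.8 and 26.8 CPM in SPT6-AID cells at 6 h, against 84.3 and 104 CPM at 0 h, and 85.5 and 123 CPM in PAF1-AID cells at 6 h, against 80.1 and 111 CPM at 0 h, a difference of -1.71 ± 0.36 (edgeR adjusted p = 0.0321), and CCNA2, cyclin A2, differed by -1.25. Of 27 cholesterol and fatty acid synthesis genes, 3 were negative and none positive, among them the mevalonate kinase gene MVK (-1.48). With total human counts 1 of the 27 was called and with fly totals none, and the call of MVK held under 8 of the 22 alternatives. Of 20 measured WNT target genes, AXIN2, a negative feedback gene of the pathway, had 85.6 and 58.2 CPM in SPT6-AID cells at 6 h, against 387 and 314 CPM at 0 h, and 186 and 224 CPM in PAF1-AID cells at 6 h, against 365 and 366 CPM at 0 h, a difference of -1.45 ± 0.28 (edgeR adjusted p = 0.0244). BMP4 differed by -1.25, and both genes fell in both lines. With total human counts or with fly totals none of the 20 was called. MYC differed by -0.56 ± 0.43 and was not called (edgeR adjusted p = 0.633).

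In a smaller set the negative difference came from a rise in PAF1-AID cells. RBM14, a paraspeckle RNA-binding protein gene, had 92.6 and 74.6 CPM in SPT6-AID cells at 6 h, against 96.1 and 95.7 CPM at 0 h, and 241 and 189 CPM in PAF1-AID cells at 6 h, against 88.5 and 87.5 CPM at 0 h. The other 6 values lay between 74.6 and 96.1 CPM, and the difference was -1.49 ± 0.21 (edgeR adjusted p = 0.0115). KLHL15, a cullin adaptor gene, had 38.5 and 32.6 CPM in SPT6-AID cells at 6 h, against 31.5 and 31.8 CPM at 0 h, and 79.5 and 67.8 CPM in PAF1-AID cells at 6 h, against 26.5 and 25.7 CPM at 0 h, a difference of -1.33 ± 0.19 (edgeR adjusted p = 0.0123). MCL1, a survival gene of the BCL2 family, had 184 and 119 CPM in SPT6-AID cells at 6 h, against 214 and 190.3 CPM at 0 h, and 429 and 407 CPM in PAF1-AID cells at 6 h, against 218 and 228 CPM at 0 h, a difference of -1.33 ± 0.25 (edgeR adjusted p = 0.0226). CDX2, the intestinal transcription factor gene (-1.11), HELZ2, a nuclear receptor coactivator (-1.28), and NOTCH2 (-0.68) also rose in PAF1-AID cells alone. NXF1, the mRNA export receptor gene, and DYNLL2, a dynein light chain gene, rose in both lines and more in PAF1-AID cells. NXF1 had 207 and 231 CPM in SPT6-AID cells at 6 h, against 84.5 and 87.6 CPM at 0 h, and 398 and 333 CPM in PAF1-AID cells at 6 h, against 86.4 and 85.2 CPM at 0 h, a difference of -0.74 ± 0.17 (edgeR adjusted p = 0.0426). The calls of NXF1 and DYNLL2 held under 5 and 6 of the 22 alternatives, and those of RBM14 and KLHL15 under 20 and 19. Those of CDX2, HELZ2 and NOTCH2 held under 8, 9 and 6.

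Many genes responded alike in direction. In both lines, 478 genes rose and 1038 fell, and for 54 of these 1516 the difference was called. A missed threshold does not show equal responses, and the 95% interval of the difference lay within 0.5 of 0 on the log2 scale for 92 of them. The largest responses among these were those of PHLDA2, an imprinted growth regulator, and MFAP1, a spliceosome protein gene. PHLDA2 had 228 and 236 CPM in SPT6-AID cells at 6 h, against 77.8 and 65.6 CPM at 0 h, and 226 and 216 CPM in PAF1-AID cells at 6 h, against 65.4 and 74.5 CPM at 0 h, with a difference of 0.03 (95% interval -0.35 to 0.42). MFAP1 had 39.8 and 31.5 CPM in SPT6-AID cells at 6 h, against 94.3 and 97.2 CPM at 0 h, and 34.9 and 35.7 CPM in PAF1-AID cells at 6 h, against 89.2 and 90.9 CPM at 0 h, with a difference of -0.08 (95% interval -0.47 to 0.32). HPS4, TRIM27, the glycosyltransferase gene C1GALT1 and the lamin gene LMNB1 fell in both lines, with differences of -0.05 to 0.01. CYP1A1, the classical target gene of the aryl hydrocarbon receptor, which some indoles activate, had 78.4 and 88.1 CPM in SPT6-AID cells at 6 h, against 2.14 and 1.85 CPM at 0 h, and 68.2 and 64.7 CPM in PAF1-AID cells at 6 h, against 3.42 and 5.67 CPM at 0 h. It rose in both lines, and its difference of 1.51 ± 0.39 missed the threshold (edgeR adjusted p = 0.0644), as did those of the other 10 genes of that pathway. Of these 11 genes 2 passed at an unadjusted p under 0.05, beside 3369 of all 20791 genes tested, and DESeq2 called 1 and limma-voom 0.

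Several pathways held no called difference by edgeR's test: 20 genes of the ATF4 and unfolded protein stress response, 26 p53 pathway genes, 21 genes of NF-kB feedback, 21 interferon response genes, 13 cyclin D and kinase inhibitor genes, 11 factors of epithelial to mesenchymal transition, 47 replication-dependent histone genes and 13 mitochondrial transcripts. At an unadjusted p under 0.05, 3369 of all 20791 genes tested passed. Of the lists, 11 of the 26 p53 genes and 6 of the 13 cyclin D and kinase inhibitor genes did. So did 5 of the 20 ATF4 genes, 4 each of the 21 NF-kB and 21 interferon genes and 1 of the 47 histone genes. None of the mitochondrial or transition genes passed. The absence of a call does not show equal responses. DESeq2 called 3 p53 genes, 2 cyclin D and kinase inhibitor genes, 1 ATF4 gene and 1 histone gene, beside 1359 of all genes. Limma-voom called 2 of the p53 and 2 of the cyclin D genes, beside 791 of all genes. The mitochondrial transcripts had a median difference of 0.00, with list medians of 0.66 in SPT6-AID cells and 0.67 in PAF1-AID cells. A single gene was called in each of several others, all negative, which is near the 3.12% of all genes and says nothing about the lists: HSF2 of 17 heat shock genes, GCLC of 14 antioxidant genes, PSMD12 of 31 proteasome genes, INTS12 of 14 Integrator genes, ATXN7L3B of 13 genes of H2B ubiquitylation and CDX2 of 19 intestinal genes. Of 19 YAP and TEAD genes, ANKRD1 was positive and LATS2 negative, and of 22 snoRNA host genes SNHG7 and SNHG17 were negative. The measured markers of other cell types held no call by edgeR, DESeq2 or limma-voom, and 0 at an unadjusted p under 0.05, among 3 blood, 4 fibroblast and endothelial and 4 neuronal genes. The summed level of the blood markers was 12.5 to 41.5 CPM in SPT6-AID cells at 6 h, against 8.27 to 25.4 CPM at 0 h, and 29.3 to 30.3 CPM in PAF1-AID cells at 6 h, against 22.3 to 24.8 CPM at 0 h. That of the fibroblast and endothelial markers was 28.1 to 29.1 and 19.4 to 23.0 CPM in SPT6-AID cells at 6 h and 0 h, and 20.2 to 21.2 and 16.04 to 20.7 CPM in PAF1-AID cells at 6 h and 0 h. That of the neuronal markers was 87.1 to 94.3 and 67.2 to 69.9 CPM in SPT6-AID cells at 6 h and 0 h, and 52.6 to 60.8 and 51.5 to 53.6 CPM in PAF1-AID cells at 6 h and 0 h. The markers CD3D, MS4A1, COL1A2, LUM, NEFM, SNAP25 and STMN2 were at 0 in all 8 libraries. Others were above 1 CPM in all 8: HBB (7.91 to 39.7 CPM), ACTA2 (12.1 to 25.7), MAP2 (31.8 to 67.3), GAD1 (12.6 to 19.8) and TUBB3 (3.04 to 6.24). HBB made up most of the blood sum. The part of these markers in the differences was not tested.

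Coding genes with a negative difference had a longer median length than all coding genes tested, and those with a positive one a shorter. By the deposited annotation, the median gene length was 16693 bases for the 58 coding genes with a positive difference and 44359 for the 623 with a negative one, against 31669 for all 13663 coding genes tested. The share with a single exon was 15.5%, 2.41% and 2.85%. The share with a negative difference was 1.94% among genes under 5 kb and 6.43% among those of 50 to 100 kb, and the share with a positive difference was 1.21% and 0.21% in the same bins. The median expression of the same sets, on the log2 CPM scale, was 1.93, 5.69 and 4.58, and its part in these shares was not tested.

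**Figure D5:**
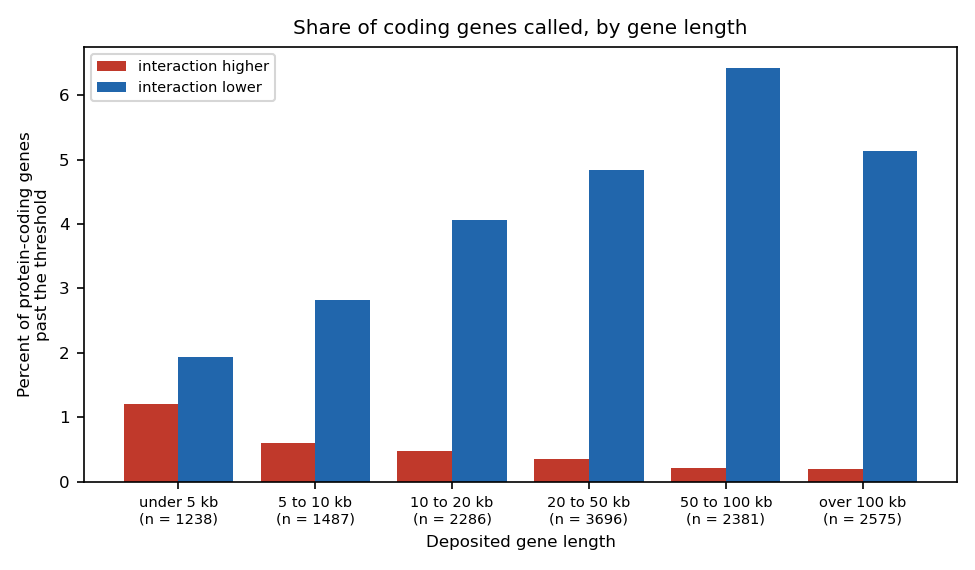
Percent of tested protein-coding genes whose difference passed the threshold, by deposited gene length, with positive differences in red and negative ones in blue; the number of genes in each bin is under it. The negative share is lowest under 5 kb (1.94%) and highest at 50 to 100 kb (6.43%), and the positive share is highest under 5 kb (1.21%).

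At 2 h the same difference was called for 7 of the 20791 genes (0.0337%), 3 positive (0.0144%) and 4 negative (0.0192%). The positive ones were SNORD3A, SNORD3B-1 and SNORD3B-2, and the negative ones ZNF597, ZNF551, ZNF574 and ITPRIP, all named after their values were seen. SNORD3A differed by 3.56 ± 0.36 at 2 h and EGR1 by 0.44 ± 0.51. The 649 genes negative at 6 h had a median of -0.22 at 2 h and the 129 positive ones 0.72, but both times are set against the same 0 h libraries, so that the values are not independent. Before auxin the lines differed in 7 genes (0.0337%), of which 1 was higher (0.00481%) and 6 lower (0.0289%) in PAF1-AID than in SPT6-AID cells: SUPT6H was at -0.86 ± 0.11 (edgeR adjusted p = 0.0333) and was among the 6. PAF1 was at 0.82 ± 0.12 (edgeR adjusted p = 0.0869). Few calls do not show that the lines started alike. The median level of PAF1-AID minus SPT6-AID cells at 0 h was 0.49 among the 129 positive genes and -0.04 among the 649 negative ones, on the log2 scale. Over all genes tested it was 0.003. A baseline difference enters the difference of responses with the same 0 h libraries, and its part was not tested.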

How the data were processed

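Poly(A)+ RNA was selected with an NEBNext module and made into libraries with a directional NEBNext kit, per the labels' protocols. Reads were trimmed with cutadapt 1.14, mapped with STAR 2.7.5 and counted with featureCounts 2.0.0, and human GRCh38 and fly BDGP6 are the builds named, per the submitters' processing notes; the strand setting and annotation release are not given in the sources used here. The deposited values are raw counts of reads per gene, with 60666 human and 17807 fly gene rows, and the deposited table also gives each gene's length. Human rows passing edgeR's filterByExpr (20791 genes) were scaled by TMM and fitted with edgeR 4.0.16 (R 4.3.3) quasi-likelihood models over all 12 libraries as 6 group means, which leaves 6 residual degrees of freedom, and the contrast used 8 libraries. Benjamini-Hochberg adjustment ran over the whole set tested, and calls needed an adjusted p under 0.05. A standard error is the absolute log2 fold change over the square root of F, and 95% intervals are unadjusted. CPM values are TMM-scaled. Depth limits precision: the median standard error of the difference was 0.27 where a gene's mean log2 CPM reached 1 and 0.78 elsewhere. The code was tested on simulated data.

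Members and gene lists were chosen with earlier results of these data known. Genes named are the 12 largest called differences in each direction whose mean log2 CPM reached 1, with responses that do not overlap, the 6 largest opposite ones, up to 3 called members of each list, the 6 strongest shared responses with an interval within 0.5 of 0, and SUPT6H and PAF1. Other genes named in the text, among them EGR2, EGR4, RBM14, KLHL15, MCL1, NXF1, CCDC71, NUP153, CDC73, CTR9 and LARP7, were chosen after their values were seen. A few genes that the rule picks are not reported here. Gene positions are from GENCODE 29 on GRCh38, which matched 98.7% of the genes tested, and promoters from RefSeq on GRCh38.p14, which matched 10992 of 13663 coding genes (80.4%). Alternatives were other scalings and filters, DESeq2 1.42.0, limma 3.58.1 voom, a replicate block, the 8 libraries alone, and leaving out each library.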

Additional observations from a re-analysis of the deposited data

Results flagged for a closer look

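The responses to 6 h of auxin differed between the SPT6-AID and PAF1-AID lines in 778 genes by a test of the difference itself (edgeR's quasi-likelihood test, adjusted p under 0.05). Among genes called in both lines in opposite directions, the difference was 3.33 for EGR1, 1.82 for WNK4 and 1.17 for FZD5, all higher in SPT6-AID cells. It was -1.85 for SIRT1, -1.83 for ZBTB33, -1.82 for AC069544.1, -1.77 for ABHD17B, -1.75 for LUZP1 and -1.69 for PDE12, all lower in SPT6-AID cells. At 2 h the responses differed in 7 genes by the same test. Fly counts, which the comparison does not use as a measure, averaged 6.16 per 100 human counts in SPT6-AID cells at 6 h, against 4.49 at 0 h, and 5.27 in PAF1-AID cells at 6 h, against 4.35 at 0 h. With 2 libraries in a group, no outlying library was looked for.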

How the results depend on the processing

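The number of genes whose 6 h responses differed moved with the processing, while the named genes that were called kept the sign of the difference under all 22 alternatives, or under 21 for SNORD3C, CFLAR-AS1, ADAMTSL4-AS2 and ZNF843, which a mean of at least 1 CPM leaves out. By edgeR's quasi-likelihood test the count was 778, with 129 genes higher and 649 lower in SPT6-AID cells and 33 of opposite sign in the lines. With library sizes from total human counts it was 223 (61 higher, 162 lower, 12 opposite), and with fly totals 16 (7 higher, 9 lower, 0 opposite). At an unadjusted p under 0.05, 2452 genes passed with the fly totals and 3369 with TMM scaling. Without a filter on low counts it was 1330 (325 higher, 1005 lower), and with a mean of at least 1 CPM 457 (85 higher, 372 lower). The 8 libraries alone gave 84 (14 higher, 70 lower, 7 opposite), and DESeq2's Wald test 1359 (271 higher, 1088 lower, 62 opposite). DESeq2's size factors gave 649 and limma-voom 791. Leaving out a library gave 30 to 1061 genes, 6 to 106 higher, 24 to 955 lower and 1 to 50 opposite, and where it left a single library in a group, that library was assumed to vary like the other groups. Causes of these shifts were not tested. With the replicate number as a block 4513 genes were called (1317 higher, 3196 lower, 536 opposite), all 778 among them. The block also called CYP1A1, CDC73, KLF6, EGR4, CDK12, LARP7, ATF3, IWS1 and MYC, whose differences missed the threshold in the main fit. All of these but IWS1 and MYC passed in a further alternative setting too. What the number marks is not in the labels, and libraries of the same number deviated together between 0 h and 6 h (r = 0.57 in SPT6-AID cells and 0.49 in PAF1-AID cells, across genes). Scaling moved the median difference of all genes to 0.12 with total human counts, and the signs of the medians of the AP-1, EGR, elongation, ZNF and ribosome biogenesis lists were the same under each scaling. With 2 libraries a group, the median standard error of 0.37 limits what can be called, more so for low genes.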
